A study of Mus musculus with 8 samples.

Results

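The genes described here are the tumor necrosis factor (TNF) superfamily of ligands and receptors together with the TRAF and TRADD adaptors, in cultured mouse embryonic kidneys. They were taken by gene name from the count table: every *Tnfsf*, *Tnfrsf* and *Traf* gene with a number, and *Tnf*, *Ltb*, *Ltbr*, *Cd40*, *Ngfr*, *Eda*, *Edar*, *Eda2r* and *Tradd*. Superfamily genes with other names, such as *Fas* and *Cd27*, are not members and were counted in a separate list of pathway genes. This gave 48 of the 30890 genes in the table, of which 14 encode ligands, 6 receptors with a death domain, 15 other signalling receptors, 4 decoy receptors and 8 adaptors. The remaining member, *Tnfsf13os*, is an antisense RNA. Kidneys of C57BL/6 embryos at E12.5 were cultured on filter membranes for 72 h with 5 µM CHIR99021 (n = 4) or with 0.1% DMSO alone (n = 4). CHIR99021 inhibits the kinase GSK-3β and so activates Wnt/β-catenin signaling, and it was given to the whole organ and not to a chosen cell type. The methods assign the left kidney of an embryo to DMSO and the right kidney to CHIR99021, and state that kidneys without typical changes of Wnt target genes were left out.

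Ligands of this superfamily are mostly trimeric membrane proteins, some of which are shed, and they cluster their receptors on the surface of a neighbouring cell. Receptors with a death domain can recruit TRADD or related adaptors and lead to cell death or to NF-κB activation, whereas most of the others bind TRAF proteins directly and activate NF-κB and JNK. Decoy receptors bind ligand without passing on a death signal. Outside the immune system, the family is known for bone remodelling (the RANKL system) and for the formation of hair, teeth and glands (the ectodysplasin system).

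Total counts ranged from 14599082 to 17751992 with DMSO and from 14616300 to 16872129 with CHIR99021. Levels are given as CPM, read counts divided by TMM-scaled library sizes, and as FPKM where genes are compared with each other. A log2 fold change is that of CHIR99021 over DMSO with its standard error (SE), and the words rose and fell are kept for genes whose adjusted p was under 0.05 in edgeR's quasi-likelihood test over all tested genes. The Wnt target *Axin2* was 3.24 (SE 0.07), *Lef1* 2.90 and *Nkd1* 4.13 higher on the log2 scale, which is no independent check because kidneys were selected on such genes. Markers of nephron progenitors were present in all DMSO-treated samples (summed level 1166 to 1426 CPM against 420 to 483 CPM with CHIR99021). DMSO samples 2 and 4 stood apart by 1404 and 999 CPM of summed hepatocyte markers, against at most 59.2 CPM in every other sample. DMSO sample 4 also had the lowest summed level of macrophage markers in its group.

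Of the 48 members, 40 had enough counts to be tested, and 27 of these changed. In total, 15 members rose and 12 fell, and 13 did not pass the test. Among all 16723 tested genes 48.7% passed in either direction (23.7% of all tested genes were higher and 25% lower), so a large share of changed genes was the background in this comparison. The CPM ranges of the groups did not overlap for 13 of the tested members that were higher and 12 that were lower (22.7% and 23.4% of all tested genes, 46.1% together). Past a log2 fold change of 1 in size, 8 members rose and 6 fell, against 4.65% of all tested genes higher and 9.16% lower (13.8% together). Past a log2 fold change of 2, 5 members rose and 2 fell, against 1.72% and 3.77%. With limma on FPKM, which has no correction for library composition, 11 members rose and 15 fell, as *Tnfrsf10b*, *Tnfrsf12a*, *Tnfrsf21* and *Traf7* no longer passed and *Ltbr*, *Tnfsf12* and *Tnfrsf9* passed as lower. The median log2 fold change of the tested members was 0.06, and that of all tested genes was -0.0029. Every one of the 27 changed members moved in the same direction in all 4 pairs of samples with the same number. For 25 of them the groups did not overlap, so any pairing gives this result and it adds no support.

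**Figure D1:**
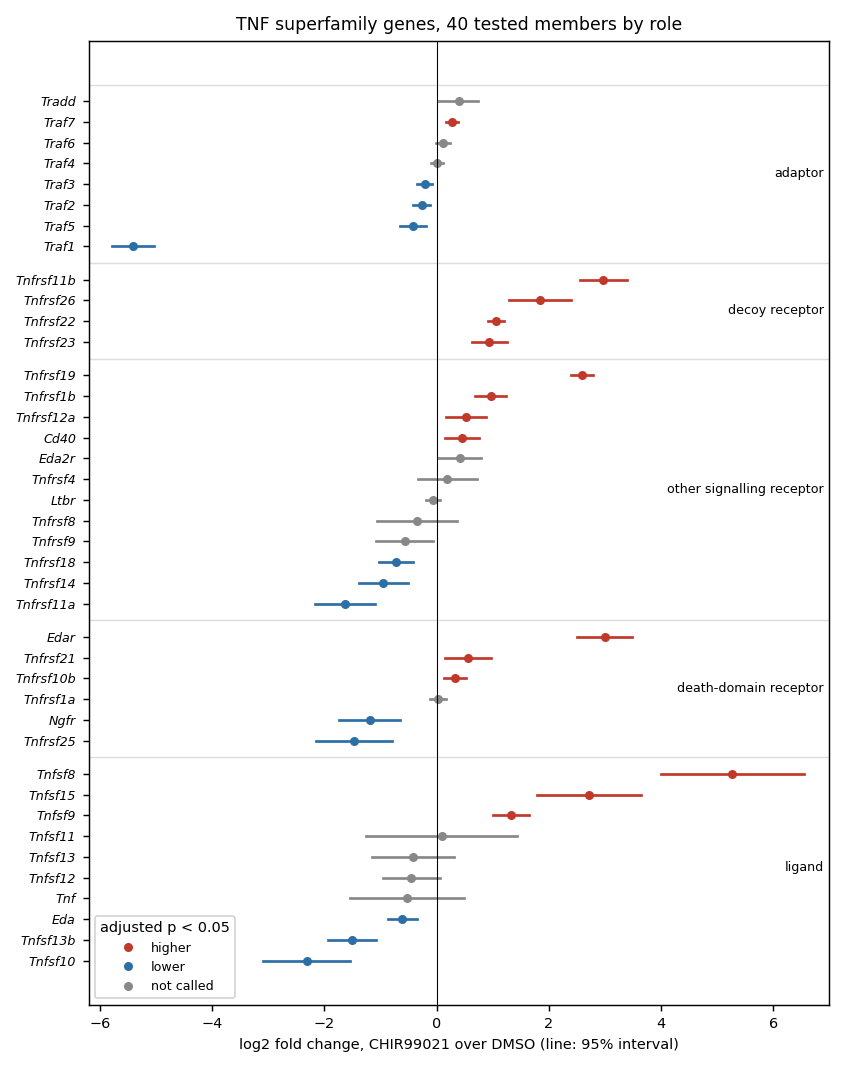
The points show the log2 fold change of each of the 40 tested members, CHIR99021 over DMSO, with lines for the 95% interval, grouped by role and coloured by the call at an adjusted p under 0.05. *Tnfsf8* (5.27) and *Traf1* (-5.41) lie far outside the others, and the 4 decoy receptors all lie to the right of 0.

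The promoters of 4 genes are shown: those of *Traf1* and *Tnfsf8*, the members with the largest changes, and those of *Edar* and *Tnfrsf19*, which rose and whose windows hold a word read by TCF/LEF factors. Each runs from 250 bases before to 50 bases after the RefSeq start of transcription in GRCm38.p6 and is written 5′ to 3′ in the direction of the gene. The capitals mark that word, CTTTGAT, or its reverse complement. TCF/LEF factors are the DNA-binding partners of β-catenin.
*Edar*, chr10:58675647-58675946, minus strand: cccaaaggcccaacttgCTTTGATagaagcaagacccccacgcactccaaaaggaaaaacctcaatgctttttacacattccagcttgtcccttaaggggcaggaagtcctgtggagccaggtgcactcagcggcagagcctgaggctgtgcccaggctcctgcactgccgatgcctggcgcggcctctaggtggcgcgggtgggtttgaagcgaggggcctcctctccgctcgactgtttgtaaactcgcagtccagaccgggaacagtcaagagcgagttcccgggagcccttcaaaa
*Tnfrsf19*, chr14:61037938-61038237, minus strand: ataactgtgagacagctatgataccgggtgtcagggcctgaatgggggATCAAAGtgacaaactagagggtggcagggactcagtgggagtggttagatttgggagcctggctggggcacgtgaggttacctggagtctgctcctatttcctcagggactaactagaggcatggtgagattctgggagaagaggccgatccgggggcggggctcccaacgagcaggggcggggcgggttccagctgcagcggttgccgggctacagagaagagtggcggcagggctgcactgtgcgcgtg
*Traf1*, chr2:34961723-34962022, minus strand: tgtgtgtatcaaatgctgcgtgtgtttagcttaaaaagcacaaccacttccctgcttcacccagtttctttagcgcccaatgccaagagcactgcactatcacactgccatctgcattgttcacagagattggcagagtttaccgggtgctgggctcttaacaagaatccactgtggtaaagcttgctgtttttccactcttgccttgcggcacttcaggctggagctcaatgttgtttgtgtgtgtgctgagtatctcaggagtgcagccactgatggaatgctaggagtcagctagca
*Tnfsf8*, chr4:63861235-63861534, minus strand: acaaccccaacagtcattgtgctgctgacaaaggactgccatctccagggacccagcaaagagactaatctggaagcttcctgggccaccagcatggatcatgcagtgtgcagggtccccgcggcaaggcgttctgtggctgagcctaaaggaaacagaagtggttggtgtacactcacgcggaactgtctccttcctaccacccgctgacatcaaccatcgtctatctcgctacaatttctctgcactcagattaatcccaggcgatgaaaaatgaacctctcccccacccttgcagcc
The word CTTTGAT lies 233 bases before the start of *Edar* and, on the opposite strand, 202 bases before the start of *Tnfrsf19*. It is in 3 of the 42 windows found for 38 members and in 3.73% of all 32851 promoters. The third window is that of *Tnfrsf9*, which did not pass the test (log2 fold change -0.56). A second *Tnfrsf19* window 8868 bases upstream did not hold it. Counting also CTTTGTT and CTTTGAA on both strands, 5 of the 42 windows and 13.9% of all promoters held a word, and neither the *Traf1* nor the *Tnfsf8* window did. The further holders were a window of *Tnfrsf25*, which fell (-1.47), and that of *Traf4*, which did not pass the test (0.01). Holding a word therefore did not go with a rise in every case. No window was found for *Tnfrsf11b*, *Tnfrsf22*, *Tnfrsf26*, *Tnfsf9*, *Tnfrsf10b* and *Cd40*, all of which rose. None was found for *Tnfsf4*, *Tnfsf12*, *Tnfsf13os* and *Tradd* either, so the promoters of these genes were not searched. The classical NF-κB word of the immunoglobulin κ enhancer and a loose NF-κB word that fixes only its ends were in 1 and 28 of the 42 windows, against 0.155% and 50.8% of all promoters. These are matches of letters and were not tested here as binding sites. From other data, the study lists *Tnfrsf19* among potential direct targets of β-catenin. Those data were β-catenin ChIP-seq and expression in cap mesenchyme cells given BIO, another Wnt activator. The study also reports *Edar* as higher with BIO in such cells.

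Of 10 tested ligands, 3 rose, 3 fell and 4 did not pass the test, with a median log2 fold change of -0.43. The share that changed was 60%, against 48.7% of all tested genes (23.7% higher and 25% lower). The 3 that rose were *Tnfsf8*, *Tnfsf15* and *Tnfsf9*, and the 3 that fell were *Tnfsf10*, *Tnfsf13b* and *Eda*. *Tnfsf8* (chromosome 4, 63831308 to 63861347) encodes CD30 ligand, a costimulatory protein known from activated lymphocytes. It was close to absent with DMSO, at 0.0541, 0.114, 0.0586 and 0.327 CPM in samples 1 to 4, and stood at 2.81, 3.28, 7.18 and 8.41 CPM with CHIR99021. All treated samples were well above all controls, although the control level rested on only 9 counts in the whole group. The log2 fold change was 5.27 (SE 0.58, adjusted p = 2.66e-05). Most of those 9 counts came from DMSO sample 4, and without it the estimate was 6.02, and 6.40 without DMSO samples 2 and 4.

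*Tnfsf15*, the ligand TL1A, is the neighbour of *Tnfsf8* on chromosome 4, with 86195 bases between the genes. Its level was 1.03, 0.971, 0.527 and 0.785 CPM with DMSO and 2.43, 3.88, 6.89 and 8.94 CPM with CHIR99021. As for *Tnfsf8*, treated samples 3 and 4 had the highest values, and the groups did not overlap. The log2 fold change was 2.72 (SE 0.42, adjusted p = 0.000314). *Tnfsf9*, which encodes 4-1BB ligand, a T-cell costimulator, had 8.71, 9.54, 8.03 and 11.3 CPM with DMSO and 22.6, 18.7, 23.3 and 29.6 CPM with CHIR99021. It was 2.51-fold higher (log2 fold change 1.33, SE 0.15, adjusted p = 1.22e-05) and was the ligand with the highest FPKM in both groups, 7.99 ± 1.20 (SD, n = 4) and 18.3 ± 3.63. A share of 11.5% of its 50-base words also occurs in the antisense gene *Gm11110*, whose reads could not be told apart without strand.

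*Tnfsf10* encodes TRAIL, which induces death through TRAIL receptors. It was measured at 11.4, 8.22, 4.51 and 9.49 CPM with DMSO and at 2.06, 1.21, 0.933 and 2.50 CPM with CHIR99021. The lowest control was still above the highest treated sample, and the gene fell by 2.31 on the log2 scale (SE 0.35, adjusted p = 0.000299). *Tnfsf13b*, the B-cell survival factor BAFF, had 7.25, 10.2, 11.3 and 11.3 CPM with DMSO and 3.62, 2.54, 4.67 and 3.22 CPM with CHIR99021 (log2 fold change -1.51, SE 0.20, adjusted p = 4.25e-05). *Eda*, ectodysplasin, fell less, from 9.63 ± 0.522 to 6.30 ± 0.634 CPM (SD, n = 4; log2 fold change -0.61, SE 0.12, adjusted p = 0.000916), again without overlap of the groups. *Eda* makes isoforms that bind *Edar* or *Eda2r*, and gene counts do not separate them.

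Among the ligands that did not pass were *Tnf* itself (-0.52, 95% interval -1.54 to 0.49) and *Tnfsf11*, which encodes RANKL (0.09, interval -1.26 to 1.44). Both had about 1 CPM, and their intervals reach beyond -1, and for *Tnfsf11* also beyond 1. *Tnfsf12* (TWEAK, -0.45, interval -0.96 to 0.05) and *Tnfsf13* (APRIL, -0.42, interval -1.15 to 0.31) share 46.8% and 57.3% of their 50-base words with other genes, chiefly the read-through gene *Tnfsfm13* that joins them, so their counts are uncertain. The other 4 ligands were too low to test. They were *Ltb* with 56 counts under DMSO and 21 under CHIR99021, *Tnfsf14* with 19 and 6, *Tnfsf18* with 8 and 3, and *Tnfsf4*, the OX40 ligand, with 4 and 21. *Tnfsf4* was the only one of these whose treated samples (0.215 to 0.536 CPM) were all above the controls (0 to 0.196 CPM), and *Tnfsf14* the only one whose treated samples (0 to 0.187 CPM) were all below them (0.216 to 0.327 CPM). *Tnfsf13os* had 47 and 14 counts and was not tested, and 22.8% of its exon bases lie opposite those of other genes, *Tnfsf13* among them.

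**Figure D2:**
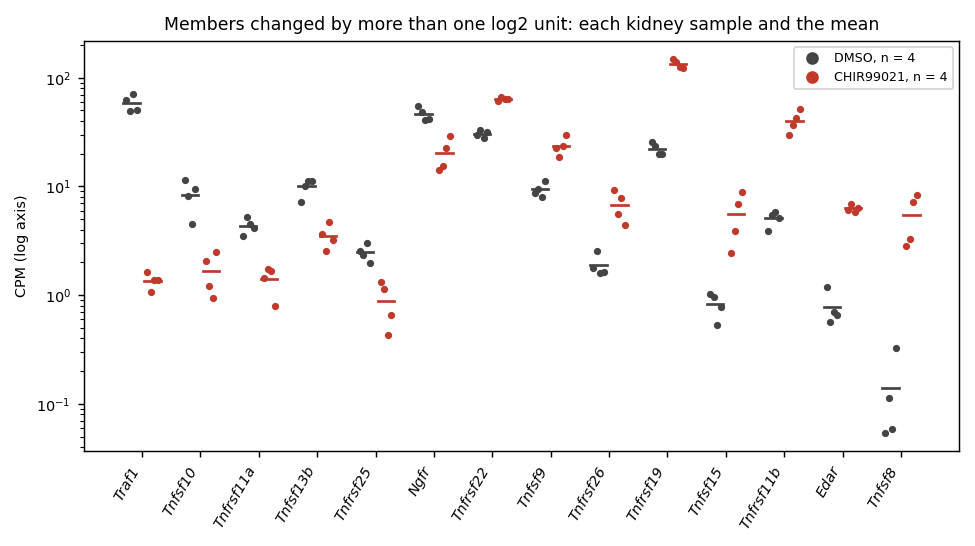
The points show CPM on a log axis in each of the 8 samples for the 14 members that changed by more than 1 on the log2 scale, with a line at the mean of each group (n = 4). The groups do not overlap for any of them, and *Tnfsf8* has the lowest control values, 0.0541 to 0.327 CPM.

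Of 6 receptors with a death domain, 3 rose, 2 fell and 1 did not pass the test. The share that changed was 83.3% of these few genes, against 48.7% of all tested genes. *Edar*, the ectodysplasin receptor (chromosome 10, 58600789 to 58675654), was at 1.19, 0.571, 0.703 and 0.654 CPM with DMSO and at 6.12, 6.96, 5.81 and 6.38 CPM with CHIR99021. The treated samples lay close together and far above the controls, and *Edar* was 7.97-fold higher (log2 fold change 3.00, SE 0.23, adjusted p = 3.99e-07). *Ngfr*, the low-affinity neurotrophin receptor p75, had 54.9, 48.2, 41.2 and 41.6 CPM with DMSO and 14.2, 15.3, 22.6 and 29.4 CPM with CHIR99021. It fell by 1.19 on the log2 scale (SE 0.23, adjusted p = 0.00362), and its highest treated sample stayed below the lowest control. Neural crest and Schwann cell markers, cells that are known for *Ngfr*, passed the test in 2 of 8 tested genes, both lower, and their summed level overlapped between the groups (78.1 to 127 CPM with DMSO, 51.0 to 140 CPM with CHIR99021). Their part in the *Ngfr* result was not tested.

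*Tnfrsf25*, the death receptor DR3 that binds TL1A, was at 2.54, 2.34, 3.05 and 1.96 CPM with DMSO and at 1.31, 1.14, 0.431 and 0.657 CPM with CHIR99021 (log2 fold change -1.47, SE 0.31, adjusted p = 0.00172). Treated samples were all below the controls. *Tnfrsf21* (death receptor DR6, known from neurons) rose by the test but not evenly. Its controls were 59.0, 63.7, 59.4 and 58.6 CPM, and its treated samples 101, 112, 79.8 and 60.4 CPM, so that sample 4 lay within the control range. The estimate was 0.55 (SE 0.18, adjusted p = 0.0327). The call was lost without any 1 of DMSO samples 1 to 4 or CHIR99021 samples 1 and 2 (log2 fold change 0.42 to 0.58, adjusted p = 0.0551 to 0.0834). *Tnfrsf10b*, the mouse TRAIL receptor, rose, with 31.7 ± 3.77 CPM in controls and 39.8 ± 3.35 CPM in treated samples (log2 fold change 0.33, SE 0.09, adjusted p = 0.00765), with DMSO sample 4 (37.3 CPM) above the lowest treated sample (35.3 CPM). *Tnfrsf1a*, the main TNF receptor, did not pass and its interval was narrow (0.02, interval -0.12 to 0.16). Its sign turned with other scalings.

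In the group of the other signalling receptors, 4 of 12 tested genes rose, 3 fell and 5 did not pass the test. The share that changed was 58.3%, against 48.7% of all tested genes. *Tnfrsf19*, also called Troy, an orphan receptor known as a Wnt target in stem cells (chromosome 14, 60963875 to 61046490), had the smallest p of the rising members. It had 25.7, 23.7, 19.9 and 19.8 CPM with DMSO and 147.6, 140.8, 125.7 and 123.8 CPM with CHIR99021. Each treated sample was far above every control, and the gene was 6.03-fold higher (log2 fold change 2.59, SE 0.09, adjusted p = 1.47e-09). *Tnfrsf1b*, the second TNF receptor, was 1.95-fold higher (12.8 ± 2.50 against 25.1 ± 2.41 CPM, SD, n = 4; log2 fold change 0.97, SE 0.13, adjusted p = 4.80e-05). Smaller rises were seen for *Tnfrsf12a*, the TWEAK receptor Fn14 (0.52, SE 0.16, adjusted p = 0.0207), and for *Cd40*, a costimulatory receptor of antigen-presenting cells (0.46, SE 0.14, adjusted p = 0.0152). The call of *Tnfrsf12a* was lost without DMSO sample 3 (adjusted p = 0.058), CHIR99021 sample 2 (0.0537) or sample 4 (0.0577), with estimates of 0.47 to 0.49. That of *Cd40* was lost without DMSO samples 2 and 4 (0.47, adjusted p = 0.0693).

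*Tnfrsf11a* encodes RANK, the receptor of RANKL. It was at 3.52, 5.20, 4.51 and 4.19 CPM with DMSO and at 1.44, 1.74, 1.65 and 0.789 CPM with CHIR99021, with no overlap, and fell by 1.63 on the log2 scale (SE 0.24, adjusted p = 0.000117). *Tnfrsf14*, the receptor HVEM, fell, with 3.75 ± 0.608 CPM in controls and 1.94 ± 0.311 CPM in treated samples (log2 fold change -0.95, SE 0.20, adjusted p = 0.00167). *Tnfrsf18*, the receptor GITR, fell, with 10.4 ± 1.77 CPM in controls and 6.29 ± 0.465 CPM in treated samples (log2 fold change -0.72, SE 0.14, adjusted p = 0.000991), but 18.7% of its 50-base words are shared with its antisense gene *Gm16008*.

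*Eda2r*, the receptor of the other ectodysplasin isoform, did not pass the edgeR test without pairing (0.42, SE 0.17, adjusted p = 0.0677). Its controls were 23.1, 28.8, 33.9 and 37.8 CPM and its treated samples 32.0, 40.6, 46.2 and 45.9 CPM, which overlap. Within each of the 4 pairs the treated sample was higher, and a fit that blocked on the replicate number gave a log2 fold change of 0.42 and an adjusted p = 0.000202. Without pairing, the call was made by DESeq2 (0.42, adjusted p = 0.0172) and limma-voom (0.43, adjusted p = 0.039), and in edgeR without DMSO sample 4 (0.52, adjusted p = 0.0265) or without CHIR99021 sample 1 (0.52, adjusted p = 0.0206). *Ltbr*, the lymphotoxin β receptor, had a narrow interval around no change (-0.07, interval -0.19 to 0.06), while those of *Tnfrsf4* (OX40, 0.19, interval -0.34 to 0.72), *Tnfrsf8* (CD30, -0.35, interval -1.07 to 0.36) and *Tnfrsf9* (4-1BB, -0.56, interval -1.07 to -0.06, adjusted p = 0.0632) were wide. *Tnfrsf9* passed without DMSO sample 2 (-0.66, adjusted p = 0.0494). The 3 receptors of B-cell factors were too low to test. *Tnfrsf13b* (TACI) had 65 counts with DMSO and 9 with CHIR99021, *Tnfrsf13c* (BAFF receptor) 22 and 23, and *Tnfrsf17* (BCMA) 4 and 5.

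All 4 decoy receptors rose, against 23.7% of all tested genes, with a median log2 fold change of 1.45. They are not 4 separate loci, since 3 of them lie side by side. *Tnfrsf11b* encodes osteoprotegerin, a secreted decoy of RANKL and TRAIL (chromosome 15, 54250619 to 54278484). Its level was 3.90, 5.48, 5.86 and 5.17 CPM with DMSO and 29.6, 36.9, 42.7 and 51.1 CPM with CHIR99021. The lowest treated sample was well above the highest control, and the gene was 7.86-fold higher (log2 fold change 2.98, SE 0.19, adjusted p = 6.69e-07). The other 3, *Tnfrsf26*, *Tnfrsf22* and *Tnfrsf23*, are neighbours on chromosome 7 between 143607659 and 143685872 and lie on the same strand. *Tnfrsf22* and *Tnfrsf23* encode TRAIL decoys of the mouse. *Tnfrsf26* was grouped with the decoys, but no ligand was assigned to it here and a decoy role was not tested.

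*Tnfrsf26* had 1.79, 2.57, 1.58 and 1.64 CPM with DMSO and 9.24, 5.62, 7.90 and 4.40 CPM with CHIR99021 (log2 fold change 1.84, SE 0.25, adjusted p = 6.43e-05). *Tnfrsf22* had 29.5, 33.1, 28.1 and 31.5 CPM with DMSO and 60.7, 66.6, 63.5 and 63.6 CPM with CHIR99021 (log2 fold change 1.06, SE 0.06, adjusted p = 4.92e-08). Replicates of *Tnfrsf22* were the more even of these, and neither gene's groups overlapped. *Tnfrsf23* rose, with 24.3 ± 4.54 CPM in controls and 46.5 ± 6.31 CPM in treated samples (log2 fold change 0.94, SE 0.14, adjusted p = 0.000343). *Tnfrsf22* and *Tnfrsf23* share 27.4% and 19.3% of their 50-base words with other genes, chiefly each other, so how reads were split between them is uncertain.

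Of the 8 adaptors, 1 rose, 4 fell and 3 did not pass the test. The share that changed was 62.5%, against 48.7% of all tested genes. *Traf1*, an adaptor that is itself an NF-κB target and that joins TRAF2 at many receptors (chromosome 2, 34941750 to 34961772), had 62.1, 49.1, 71.5 and 50.1 CPM with DMSO and 1.62, 1.07, 1.36 and 1.38 CPM with CHIR99021. The fall left every treated sample far below every control, at 42.5-fold lower (log2 fold change -5.41, SE 0.17, adjusted p = 1.16e-09). *Traf1* ranked at place 41 from the lowest log2 fold change among the 16723 tested genes. The study named it among its most changed genes on these samples, so its direction is not independent evidence. In DMSO sample 4, which had the lowest summed level of macrophage markers among controls, *Traf1* was at 50.1 CPM, against 49.1 to 71.5 CPM in the other controls. This is a single library, and the part of macrophages in the fall of *Traf1* was not tested.

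No other adaptor came near this size. *Traf5* fell by 0.42 (SE 0.11, adjusted p = 0.00682), *Traf2*, the partner of *Traf1*, by 0.27 (SE 0.07, adjusted p = 0.00498), and *Traf3*, an inhibitor of noncanonical NF-κB signaling, fell by 0.21 (SE 0.06, adjusted p = 0.0141) on the log2 scale. *Traf7* rose by 0.27 (SE 0.05, adjusted p = 0.00076). The call of *Traf3* was lost without DMSO samples 2 and 4 (-0.17, adjusted p = 0.119). *Tradd*, the adaptor of death domains, was 0.39 higher without passing the test (interval 0.05 to 0.74, adjusted p = 0.0588), and passed without DMSO sample 3 (0.47, adjusted p = 0.0416) or CHIR99021 sample 3 (0.51, adjusted p = 0.0174). *Traf4* (0.01, interval -0.10 to 0.12) and *Traf6*, which also serves Toll-like receptors (0.11, interval -0.01 to 0.24), had narrow intervals, and *Traf6* passed without CHIR99021 sample 4 (0.16, adjusted p = 0.0335).

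On the FPKM scale, which allows levels of genes to be compared, the family was led by receptors in both groups. With DMSO the mean was 50.6 ± 3.14 FPKM (SD, n = 4) for *Tnfrsf1a*, 32.0 ± 1.52 for *Ltbr*, 27.5 ± 5.93 for *Tnfrsf12a* and 26.1 ± 0.906 for *Traf4*. *Tnfrsf12a* did not differ beyond its spread from *Ltbr* or *Traf4*. With CHIR99021 *Tnfrsf1a* (46.8 ± 3.70) was still highest, followed by *Tnfrsf12a* (35.9 ± 4.72), *Ltbr* (27.8 ± 1.62) and *Tnfrsf19* (27.0 ± 2.18), of which *Ltbr* and *Tnfrsf19* did not differ beyond their spread. *Tnfrsf19* moved from place 18 to 4 of the 48 members and *Tnfrsf11b* from 23 to 10, whereas *Traf1* moved from place 13 to 44. *Tnfsf8* moved from place 47 to 26.

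**Figure D3:**
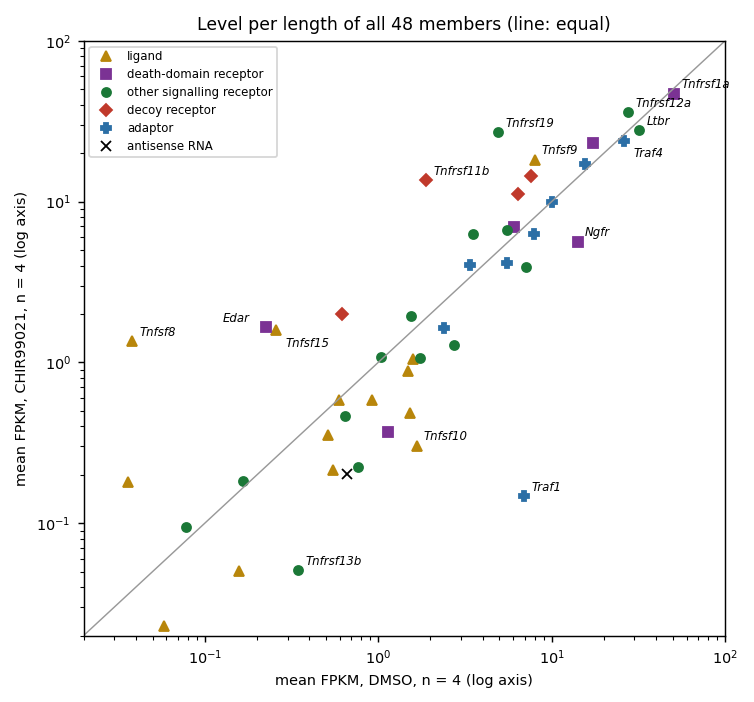
Each symbol is one of the 48 members, placed by its mean FPKM with DMSO and with CHIR99021 (n = 4 each, log axes), with symbols by role and a line of equal level. *Tnfsf8*, *Edar*, *Tnfsf15*, *Tnfrsf11b* and *Tnfrsf19* lie above the line, and *Traf1* (6.91 against 0.147 FPKM) lies farthest below it among tested members.

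Setting ligands beside their known receptors, 14 textbook pairs had both partners tested. The pairs were listed with these results known. In 6 of them both partners changed, each time in opposite directions, in 7 only 1 partner changed, and in 1 neither did. Of all tested genes 48.7% changed (23.7% higher and 25% lower), so changed partners are frequent at this background. Several genes occur in more than 1 pair, so the pairs are not separate observations. *Tnfsf10* accounts for 4 of the 6, since it fell (-2.31) while its receptor *Tnfrsf10b* (0.33) and its decoys *Tnfrsf22* (1.06), *Tnfrsf23* (0.94) and *Tnfrsf11b* (2.98) rose. In the other two, *Tnfsf15* rose (2.72) and *Tnfrsf25* fell (-1.47), and *Eda* fell (-0.61) and *Edar* rose (3.00). In the RANKL system the ligand *Tnfsf11* did not pass, the receptor *Tnfrsf11a* fell (-1.63) and the decoy *Tnfrsf11b* rose (2.98). *Tnfsf8* (5.27) and *Tnfsf9* (1.33) rose, while their receptors *Tnfrsf8* (-0.35) and *Tnfrsf9* (-0.56) did not pass the test. *Tnf* did not pass, and of its receptors *Tnfrsf1a* did not pass and *Tnfrsf1b* rose (0.97).

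**Figure D4:**
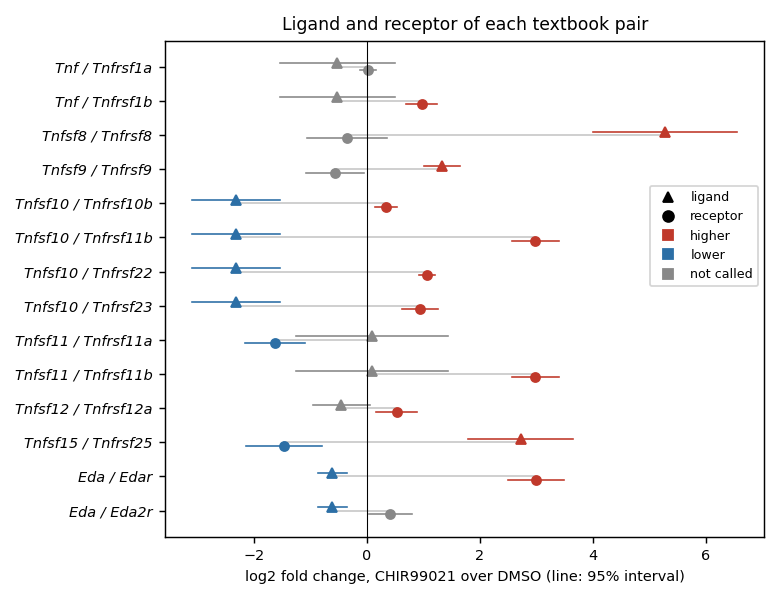
For each of 14 ligand and receptor pairs the triangle gives the log2 fold change of the ligand and the circle that of the receptor, CHIR99021 over DMSO, with 95% intervals and colours for the call. *Tnfsf10* (-2.31) lies to the left of its receptor and its decoys, and *Tnfsf15* (2.72) to the right of *Tnfrsf25* (-1.47).

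Macrophages carry several of these genes, and their markers moved with the treatment. All 15 tested macrophage markers fell, *Csf1r* by 3.51 and *Adgre1* by 3.12 on the log2 scale, and their summed level was 615, 583, 663 and 176 CPM with DMSO and 32.7 to 94.5 CPM with CHIR99021. In bulk samples, fewer cells of a type and less RNA per cell cannot be told apart. The immune genes *Tnf* (31.7% of the control mean) and *Tnfrsf13b* (55.7%) were lowest in DMSO sample 4 within their group, as was the marker sum (34.6%). In that sample *Tnf* had only 7 counts and *Tnfrsf13b* only 8. *Tnfrsf18* (76.9%) and *Tnfrsf1b* (76.5%) were lowest there too, whereas *Tnfsf13b* (113%) and *Tnfrsf11a* (96.2%) were not. *Tnfrsf1b* rose in treated samples while the markers fell. These 6 genes were chosen after their values were seen, and the part of macrophages in their results was not tested. Lymphocyte markers were close to absent, at a sum of 4.78 to 7.71 CPM with DMSO and 1.94 to 2.34 CPM with CHIR99021. Endothelial markers fell in 10 of 10 tested genes (498.1 to 685.9 CPM with DMSO, 195.6 to 272.3 CPM with CHIR99021) and nephron progenitor markers in 10 of 10. Ureteric markers fell in 8 of 12 (742.3 to 897.5 CPM against 482.3 to 577.3 CPM). Stromal markers rose in 5 and fell in 3 of 11, with a median log2 fold change of 0.14. Their sum was 4926 to 6499 CPM with DMSO and 9807 to 11870 CPM with CHIR99021. Collagen genes dominated that sum, with *Col1a1* at a mean of 1793 CPM with DMSO and 4524 CPM with CHIR99021.

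**Figure D5:**
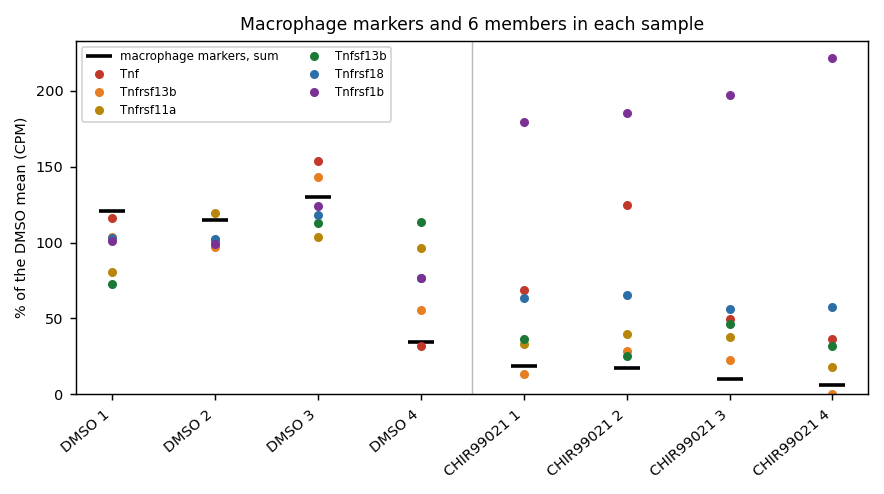
Black bars give the summed CPM of macrophage markers and points the CPM of 6 members in each sample, all as percent of the mean of the 4 DMSO samples. In DMSO sample 4 the marker sum is at 34.6% and *Tnf* at 31.7% (7 counts), while *Tnfsf13b* is at 113%. In treated samples the marker sum is at 6.41% to 18.6% and *Tnf* at 36.3% to 124.9%.

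Other genes of TNF and NF-κB signaling were counted from a list of 58. Of these, 53 were tested, 16 rose, 11 fell and 26 did not pass the test, with a median log2 fold change of 0.02. The share that changed was 50.9%, close to the 48.7% of all tested genes (23.7% higher and 25% lower). The largest rise and the largest fall were in a necroptosis pair: *Ripk3*, the kinase that starts necroptosis, rose (20.5 ± 2.74 against 41.6 ± 2.24 CPM, log2 fold change 1.03, SE 0.09, adjusted p = 1.56e-06), while *Mlkl*, the pore-forming protein it activates, fell (6.38 ± 0.874 against 1.66 ± 0.185 CPM, log2 fold change -1.93, SE 0.18, adjusted p = 1.98e-06). *Edaradd*, the adaptor of *Edar*, fell by 1.14 (SE 0.23, adjusted p = 0.00106) and was chosen for its link to *Edar* after its value was seen. The genes with the next smallest p that rose were *Mapk8* (JNK1, 0.28), *Nfkbia* (the inhibitor IκBα, 0.42), *Otulin* (0.35) and *Rel* (0.54). Those that fell were the deubiquitinase *Cyld* (-0.53), *Map3k5* (-0.63), *Tnip1* (-0.55) and *Nfkb1* (-0.27). Of 21 tested transcriptional targets of NF-κB, 3 rose (*Bcl3*, *Nfkbia* and *Irf1*), 5 fell and 13 did not pass the test. The share of these targets that changed was 38.1%, below the 48.7% of all tested genes. Among those that fell were the chemokines *Ccl2* (-2.50) and *Cxcl10* (-2.78). The split of the list of 58 differed between fits. Upper-quartile scaling gave 12 higher and 12 lower. Limma on FPKM, which differs in scaling, transform and test, gave 5 or 7 higher and 16 or 17 lower by pseudocount. Without DMSO samples 2 and 4, 10 rose and 10 fell.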

How the data were processed

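RNA-seq of 8 samples (4 per group, grouped by their labels) was analysed from a deposited table of whole read counts and a separate deposited table of FPKM values. Per the labels and methods, the authors aligned filtered reads to GRCm38 with HISAT2 2.0.5, made the counts with featureCounts and scaled them to FPKM. The count divided by the sample's total count and by the deposited FPKM gave a gene length that was the same across samples. This held for 100% of genes with an FPKM value (tolerance 0.1%), so the FPKM values carry no composition scaling. The lengths were not compared with an annotation. No source used here gives the strand setting, and the labels and the methods name different RNA and library kits. The deposited data also hold the authors' own group comparison, which was not used.

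Counts were filtered with filterByExpr (minimum count 10, minimum total 15), which kept 16723 genes or 54.1%, scaled by TMM and tested with edgeR 4.0.16 (quasi-likelihood, robust, group as the only term) in R 4.3.3, with Benjamini-Hochberg adjustment over all tested genes. Intervals are 95% intervals of the fit. The procedure was tested on simulated data. The methods put the left and right kidney of an embryo into opposite groups but do not tie replicate numbers to embryos, and how many kidneys a sample held is not given. Deviations of equally numbered samples from the group means correlated at 0.111 to 0.346, against -0.18 to 0.0766 for other samples. An alternative fit treated equally numbered samples as pairs, with the replicate number as a block, because the methods describe left and right pairs. Other alternatives used limma 3.58.1, DESeq2 1.42.0, other scalings, filters and FPKM, and each sample left out in turn. DMSO samples 2 and 4 were left out together after the data were seen.

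The members, gene lists and ligand and receptor pairs were chosen with earlier results of these data known. All members were accounted for. Sample values were given for members past a log2 fold change of 1 whose higher group mean reached 1 CPM, for *Traf1*, *Tnfrsf19* and *Edar*, and for those whose interval mattered. Of the pathway list, up to 5 genes with the smallest p per direction were named. Positions are those of GENCODE M21, in which all 48 members were found. RefSeq promoters matched 38 members.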

Additional observations from a re-analysis of the deposited data

Results flagged for a closer look

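In 5 of 80 groups of 4 samples, 1 sample lay far from the other 3 by Dixon's criterion, where chance gives about 1 in 20. All 5 were DMSO groups. *Tnfrsf10b* was 37.3 CPM in DMSO sample 4, against 29.4 to 30.3 CPM in the other controls. *Tnfrsf9* was also highest in DMSO sample 4, with 6.54 CPM against 3.65 to 3.98 CPM. *Tnfrsf21* was 63.7 CPM in DMSO sample 2, against 58.6 to 59.4 CPM, and *Tnfsf11* was 2.34 CPM in the same sample, against 0.851 to 1.03 CPM. *Tnfrsf8* was 0.996 CPM in DMSO sample 3, against 2.36 to 2.63 CPM. DMSO samples 2 and 4 are those with the most RNA of hepatocyte markers (1404 and 999 CPM), and the part of this in the values was not tested.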

How the results depend on the processing

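The number of members that rose was 11 to 16 and that of members that fell 12 to 15 over all alternatives, against 15 and 12. The 14 members past a log2 fold change of 1 kept their direction and their call in every one of them. With the replicate block, 16 members rose and 12 fell, and *Eda2r* was the only member whose call the pairing changed. Leaving out 1 sample gave 13 to 16 members higher and 12 to 14 lower, 13 to 15 and 9 to 12 of the pathway genes, and 3561 to 3812 and 3877 to 4064 of all genes.

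FPKM carries no composition scaling, and its fits also differ in transform and test. With log2(FPKM + 1) and log2(FPKM + 0.1) the median of all genes shifted by -0.10 and -0.13, and 29.5% and 29.2% of calls were higher, against 48.6% in the TMM-scaled fit and 41.5% with upper-quartile scaling. All genes called higher fell to 2520 and 2437 and pathway genes called higher to 7 and 5, and pathway genes called lower rose to 17 with log2(FPKM + 1). Without DMSO samples 2 and 4, chosen after the data were seen, 10 pathway genes were higher. FPKM ended the calls of *Tnfrsf10b* (0.17 and 0.20), *Traf7* (0.13 and 0.14), *Tnfrsf12a* (0.39 and 0.40) and *Tnfrsf21* (0.36 and 0.38). *Tnfrsf12a* and *Tnfrsf21* were also lost with no expression filter, and *Tnfrsf21* with limma on log2(count + 1) after normalizeBetweenArrays (adjusted p = 0.0595), where *Tradd* (0.58, adjusted p = 0.0142) and *Tnfrsf4* (0.46, adjusted p = 0.048) passed. The pseudocount shrank low genes, *Tnfsf8* to 1.14 and 3.30 and *Traf1* to -2.77 and -4.81.

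Signs turned for 4 members that did not pass in the TMM-scaled fit. With log2(FPKM + 1) and log2(FPKM + 0.1) the values were -0.11 and -0.11 for *Tnfrsf1a*, -0.12 and -0.13 for *Traf4*, -0.036 and -0.23 for *Tnfsf11*, and -0.019 and -0.021 for *Traf6*. Upper-quartile scaling gave -0.023 for *Tnfrsf1a* and -0.038 for *Traf4*, limma after normalizeBetweenArrays -0.038 and -0.044, and limma-voom -0.24 for *Tnfsf11*. With 1 sample left out the values ran from -0.023 to 0.073 for *Tnfrsf1a*, from -0.020 to 0.033 for *Traf4* and from -0.49 to 0.56 for *Tnfsf11*. The causes were not tested. Low counts kept 8 members from the test.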
